A study of Rattus norvegicus with 17 samples.

Results

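Tspan8 and Tm4sf4 encode membrane proteins that cross the membrane several times, and they are 2 of the 14506 genes measured on these arrays. They were selected on measured values of these libraries, namely their levels over control, 20 mg/kg and 30 mg/kg and their joint movement, so those levels are given as a description with no test. Each symbol was carried by 1 probe set: 10895499 for Tspan8 (rat Entrez gene 171048, chr7:53331019-53365402 in GRCr8) and 10815503 for Tm4sf4 (Entrez gene 116467, chr2:143720220-143771283 in GRCr8).

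Transcripts were measured on 17 Affymetrix arrays, 10 from rats treated with NVP-BEZ235, which blocks both mTOR and the lipid kinase PI3K, and 7 from rats given 20 mg/kg of polyethylene glycol (PEG) as control. All rats were 8 months old, of a mixed Sprague-Dawley white eye and Wistar-Kyoto background, and carried mutant Cdkn1b, which encodes p27, a brake on cyclin-dependent kinases, so the controls were mutant as well. The sample labels call the mutation homozygous and the series design calls it heterozygous. The treated libraries comprised 6 at 20 mg/kg, numbered 5 to 10 in their titles (4 female, 2 male), and 4 at 30 mg/kg, numbered 1 to 4 (3 female, 1 male). Controls numbered 5 to 7 comprised 1 female and 2 males, and controls numbered 1 to 4 were 4 females. Because dose and set of title numbers coincide among the treated rats, dose and set cannot be told apart, and each dose is set against the controls that share its numbers. The labels do not say that each library came from a separate animal, so every error here covers the spread between libraries.

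The tissue is labelled pituitary adenoma, whereas pheochromocytoma, which arises from adrenal chromaffin cells, stands in the title of the series. All 6 measured chromaffin markers and all 9 measured adrenal cortex markers had mean levels above the arrays' upper quartiles (6.849 to 7.098, log2). The catecholamine enzymes Th and Dbh averaged 12.3 ± 0.320 and 12.3 ± 0.251, and the steroidogenic genes Cyp11a1 and Star 12.02 ± 0.259 and 12.1 ± 0.190 (log2 level, SD, n = 17). Of 7 pituitary hormone genes, 1 had a mean above the array median, Prl at 5.61 ± 1.22, and 0 had a mean above the upper quartile. The highest library reached 9.164 for Prl and 7.864 for Pomc, above the upper quartiles. The rest of the 7 stayed below the upper quartiles in every library. Array medians lay between 4.947 and 5.114, and the number of arrays limits the precision.

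Tetraspanins gather integrins, immunoglobulin-like proteins and adhesion molecules into membrane microdomains. Tspan8 is a tetraspanin of digestive epithelia and of many carcinomas, where it is carried on exosomes and linked to cell motility and the growth of vessels. Tm4sf4 belongs to the L6 family, whose members share the membrane topology of tetraspanins but form a family of their own. It was first described as an intestine and liver membrane protein and is also known from the pancreas.

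The windows around the annotated start sites of both genes are shown because the transcripts varied together. Each holds 250 bases before and 50 bases after the start site in RefSeq's GRCr8 annotation, on the plus strand, and capitals mark the motif matches. The Tspan8 window is chr7:53330937-53331236 and the Tm4sf4 window chr2:143755811-143756110.
Tspan8: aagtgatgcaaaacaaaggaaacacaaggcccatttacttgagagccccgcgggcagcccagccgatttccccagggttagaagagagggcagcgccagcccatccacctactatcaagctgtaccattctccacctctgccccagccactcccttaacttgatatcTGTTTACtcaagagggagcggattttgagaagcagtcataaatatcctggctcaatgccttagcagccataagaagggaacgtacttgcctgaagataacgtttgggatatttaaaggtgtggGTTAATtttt
Tm4sf4: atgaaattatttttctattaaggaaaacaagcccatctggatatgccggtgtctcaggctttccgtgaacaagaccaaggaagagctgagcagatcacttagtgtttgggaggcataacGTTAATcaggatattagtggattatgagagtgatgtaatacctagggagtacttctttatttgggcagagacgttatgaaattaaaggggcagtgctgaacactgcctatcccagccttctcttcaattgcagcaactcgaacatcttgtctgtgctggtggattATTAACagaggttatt
The letters searched on both strands were those of the TATA box, TATAAA, and those of cores bound by transcription factors. One was GTTAAT, bound by the hepatic and intestinal HNF1 factors. The other was GTAAACA, bound by FOXO factors, which act downstream of PI3K. The HNF1 core was in both windows: it began at position 41 after the Tspan8 start site, and at 131 bases before the Tm4sf4 start site, with a reverse match at position 35 after it. A reverse FOXO core, TGTTTAC, began 83 bases before the Tspan8 start site. TATAAA was in neither window. Of 33469 rat promoters of the same length, 7.45% held the HNF1 core, 3.78% the FOXO core and 14.2% TATAAA. No matches overlapped. A match is a description of letters only, and in both genes the annotated span reaches upstream of the start site used, so other start sites were not covered.

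Both transcripts were among the most variable of the arrays. Tspan8 spanned 4.601 to 10.274 on the log2 scale, a 51.0-fold range, with an SD of 1.80 (n = 17), and 10 of the other genes had a larger SD. Tm4sf4 spanned 5.45 to 10.302, a 28.9-fold range, with an SD of 1.40, and 32 genes had a larger SD. The median SD over all genes was 0.286. Within a library Tspan8 stood between percentile 32.6 and percentile 97.5 of the genes and Tm4sf4 between 46.9 and 97.4, so both ranged from the middle or below to near the top of the array.

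In the rats given 20 mg/kg, Tspan8 had log2 levels of 7.011, 8.111, 8.684 and 9.106 in the female libraries numbered 5 to 8 and 10.274 and 8.874 in the male libraries 9 and 10. The controls of that set had 7.265 in female library 5 and 9.79 and 9.91 in male libraries 6 and 7. All 3 controls lay inside the range of the treated libraries. The means were 8.68 ± 1.08 at 20 mg/kg (SD, n = 6) and 8.99 ± 1.49 in controls 5 to 7 (n = 3). The difference of -0.31 ± 0.859 (log2, SE) was smaller than the pooled SD of 1.21, and it was not stable in direction. It came to 0.09 and 0.15 without control replicate 6 or 7, to 0.02 without 20 mg/kg replicate 5, to -0.20 and -0.63 without 20 mg/kg replicate 6 or 9, to -1.17 without control replicate 5, and to 0.08 with sex as a term. Female libraries alone gave 0.96, against a single control.

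Tm4sf4 had log2 levels of 7.563, 8.115, 8.344 and 8.714 in female libraries 5 to 8 at 20 mg/kg and 9.748 and 8.318 in male libraries 9 and 10. The controls of that set had 8.318 in female library 5 and 10.302 and 9.333 in male libraries 6 and 7. Library 9 was the highest of the treated for both genes, and library 5 the lowest. The means were 8.47 ± 0.732 at 20 mg/kg (SD, n = 6) and 9.32 ± 0.992 in controls 5 to 7 (n = 3), a difference of -0.85 ± 0.576 (log2, SE) and a 1.80-fold lower level. The groups overlapped, with 5 of 6 treated libraries below the control mean and 2 of 6 below the lowest control. The difference was close to the pooled SD of 0.815 and moved to -0.36 without control replicate 6, to -1.35 without control replicate 5 and to -0.13 in females alone.

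At 30 mg/kg both genes had their lowest levels. Tspan8 had 6.428, 4.601 and 5.513 in female libraries 1 to 3 and 5.176 in male library 4, against 4.928, 7.539, 8.397 and 8.237 in control libraries 1 to 4. Control 1 stood apart from the other controls and lay within the treated range, so 1 of 4 treated libraries was below the lowest control although all 4 were below the control mean. The means were 5.43 ± 0.765 at 30 mg/kg and 7.28 ± 1.61 in controls 1 to 4 (SD, n = 4 each). The difference of -1.85 ± 0.891 (log2, SE), a 3.59-fold lower level, exceeded the pooled SD of 1.26. Without control replicate 1 it was -2.63, a 6.18-fold lower level. It was -1.47 without control replicate 3 and -1.57 without 30 mg/kg replicate 2. In these bulk samples fewer cells of a type and less RNA per cell cannot be told apart.

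Tm4sf4 had log2 levels of 7.18, 5.51 and 5.919 in female libraries 1 to 3 at 30 mg/kg and 5.45 in male library 4, against 7.022, 8.46, 7.6 and 9.004 in control libraries 1 to 4. The separation was clearer than for Tspan8, since 3 of 4 treated libraries lay below the lowest control, and library 1 did not. The means were 6.01 ± 0.804 at 30 mg/kg and 8.02 ± 0.882 in controls 1 to 4 (SD, n = 4 each). The difference of -2.01 ± 0.597 (log2, SE), a 4.02-fold lower level, exceeded the pooled SD of 0.844. It was -2.34 without control replicate 1 and -1.68 without control replicate 4. Of all 14506 genes, 35 had a lower difference at 30 mg/kg than Tspan8 and 28 a lower one than Tm4sf4, and the median difference of all genes was -0.005.

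**Figure D1:**
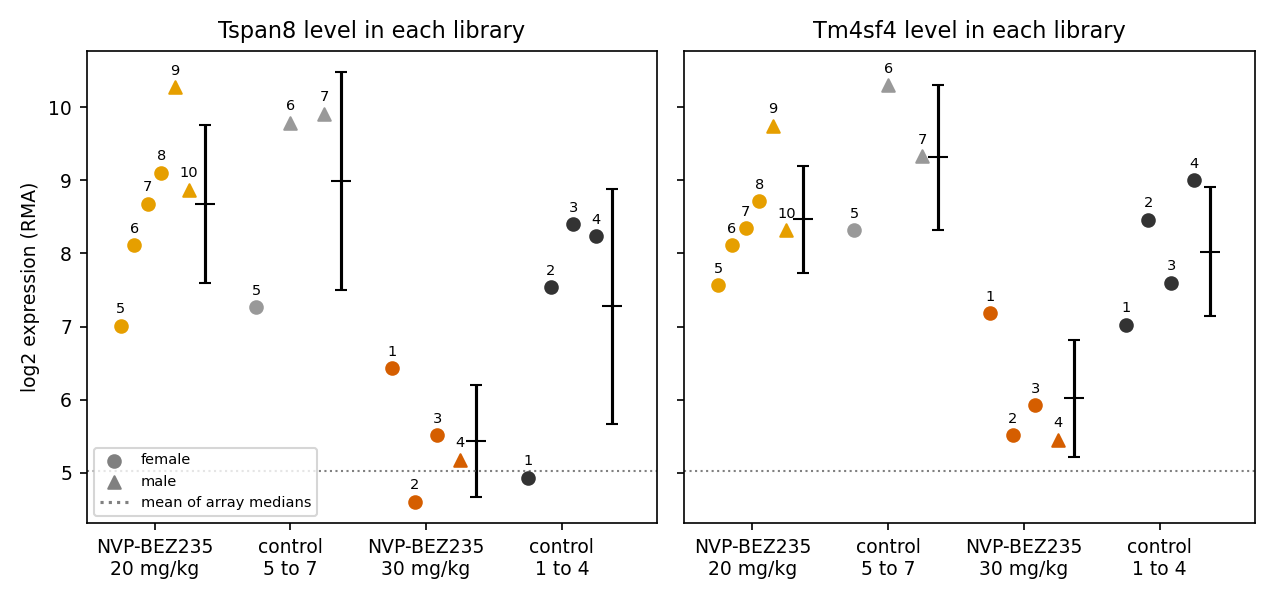
Log2 RMA expression of Tspan8 (left) and Tm4sf4 (right) in each of the 17 libraries, with the title number beside each point, circles for females and triangles for males. Black bars give the group mean and SD, and the dotted line is the mean of the array medians. The 30 mg/kg libraries are the lowest group for both genes, and control 1 lies within their range.

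The order of the group means was the same for both genes. Controls 5 to 7 were highest, followed by 20 mg/kg, controls 1 to 4 and 30 mg/kg. The controls differed between the sets: controls 1 to 4 minus controls 5 to 7 was -1.71 ± 1.19 for Tspan8 and -1.30 ± 0.709 for Tm4sf4 (log2, SE), against pooled SDs of 1.56 and 0.928. The 20 mg/kg mean lay within a pooled SD of that of controls 5 to 7 for Tspan8 and just beyond it for Tm4sf4. Taken as controls 1 to 4 minus 20 mg/kg, the next step in the order, the difference was -1.40 for Tspan8 against a pooled SD of 1.31, and -0.45 for Tm4sf4 against a pooled SD of 0.792.

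The libraries at 30 mg/kg all lay below those at 20 mg/kg for both genes, as they did for 7.42% of all genes (1076 of 14506). Tspan8 spanned 4.601 to 6.428 at 30 mg/kg and 7.011 to 10.274 at 20 mg/kg, a difference of means of -3.25 ± 0.630 (log2, SE) and a 9.50-fold lower level. No other gene had a lower value for this difference (0 of 14506). Tm4sf4 spanned 5.45 to 7.18 at 30 mg/kg and 7.563 to 9.748 at 20 mg/kg, a difference of -2.45 ± 0.491 and a 5.47-fold lower level, with 3 genes lower. Set against the controls of its own numbers, the effect at 30 mg/kg minus that at 20 mg/kg was -1.53 ± 1.24 for Tspan8 and -1.16 ± 0.829 for Tm4sf4 (log2, SE), so the part of the gap between doses that exceeds the gap between control sets was little larger than its error. With all libraries pooled, the treated mean of Tspan8 was 7.38 ± 1.91 (SD, n = 10) and the control mean 8.01 ± 1.70 (n = 7), a difference of -0.63 ± 0.901. For Tm4sf4 the means were 7.49 ± 1.46 in treated and 8.58 ± 1.09 in control libraries, a difference of -1.09 ± 0.652 (log2, SE). The pooled Tspan8 difference depended on single libraries: it was -1.15 without control replicate 1, -0.95 without 20 mg/kg replicate 9, and -0.31 without control replicate 7 or -0.33 without control replicate 6. It was also -0.32 without 30 mg/kg replicate 2 and -0.39 without 30 mg/kg replicate 4, and -0.21 in females alone.

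The 2 transcripts moved together from library to library. Over the 17 arrays Pearson's r was 0.915 and Spearman's rho 0.895, and without the 2 libraries farthest from the Tspan8 median, 30 mg/kg replicate 2 and control replicate 1, r was 0.916 (n = 15). These are descriptions with no test, and the points share the treatment groups and the processing. Within the 7 controls r was 0.832 and rho 0.750, and within the 6 libraries at 20 mg/kg r was 0.965 and rho 0.943. After each library's value was taken as its deviation from the mean of its group among the 4 groups above, r was 0.827 and rho 0.824. Control 1 departed from the line, with a Tspan8 level of 4.928 among the lowest and a Tm4sf4 level of 7.022.

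**Figure D2:**
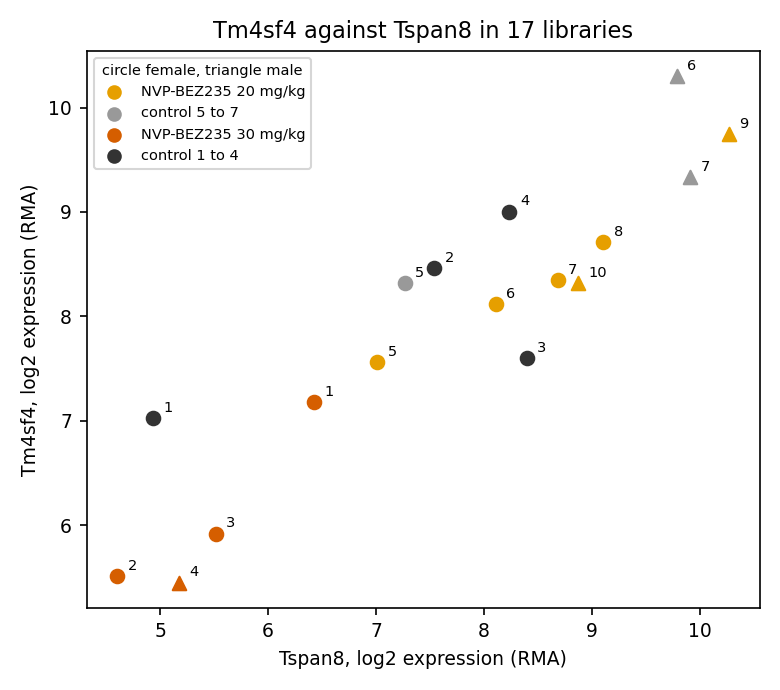
Tm4sf4 plotted against Tspan8 (log2 RMA expression) in the 17 libraries, numbered by title and coloured by group. The points run along a single band from the 30 mg/kg libraries at the low end to male 20 mg/kg library 9 and male controls 6 and 7 at the high end (r = 0.915).

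Other genes followed the pair as closely. By r, Tm4sf4 ranked 14 among the genes most like Tspan8 and Tspan8 ranked 9 among those most like Tm4sf4 over the 17 arrays. Of 14504 other genes, 196 had a mean r with the pair above 0.8, against a median mean r of -0.06 over all of them. Over deviations from the 4 group means, 34 genes were above 0.8. The 5 most alike over the arrays were Zfp423, a zinc finger transcription factor (r of 0.946 with Tspan8 and 0.941 with Tm4sf4), Sctr, the secretin receptor (0.948 and 0.925), Fam162a, a hypoxia-responsive mitochondrial protein (0.952 and 0.919), Gng10, a G protein gamma subunit (0.939 and 0.929), and Sult4a1, a brain sulfotransferase (0.947 and 0.902).

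Over the deviations, Fam162a, Zfp423 and Sctr were again among the 5 most alike, with Rab3c, a small GTPase of secretory vesicles (0.910 and 0.906), and Camk2g, a subunit of calcium and calmodulin-dependent kinase II (0.924 and 0.891). These genes were chosen for their likeness, so their levels are also given with no test. Sctr averaged 4.93 ± 0.390 at 30 mg/kg (SD, n = 4) and 6.13 ± 0.657 in controls 1 to 4 (n = 4), and 6.79 ± 0.883 at 20 mg/kg (n = 6) and 6.997 ± 1.31 in controls 5 to 7 (n = 3). Zfp423 averaged 5.80 ± 0.376 at 30 mg/kg and 6.54 ± 0.271 in controls 1 to 4, and 6.90 ± 0.354 at 20 mg/kg and 6.89 ± 0.478 in controls 5 to 7. Both had the order of 30 mg/kg below controls 1 to 4 that the pair had, over a smaller range. Rab3c did not: it averaged 10.9 ± 0.275 at 30 mg/kg and 10.8 ± 0.422 in controls 1 to 4, so its likeness lay in the variation within groups.

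**Figure D3:**
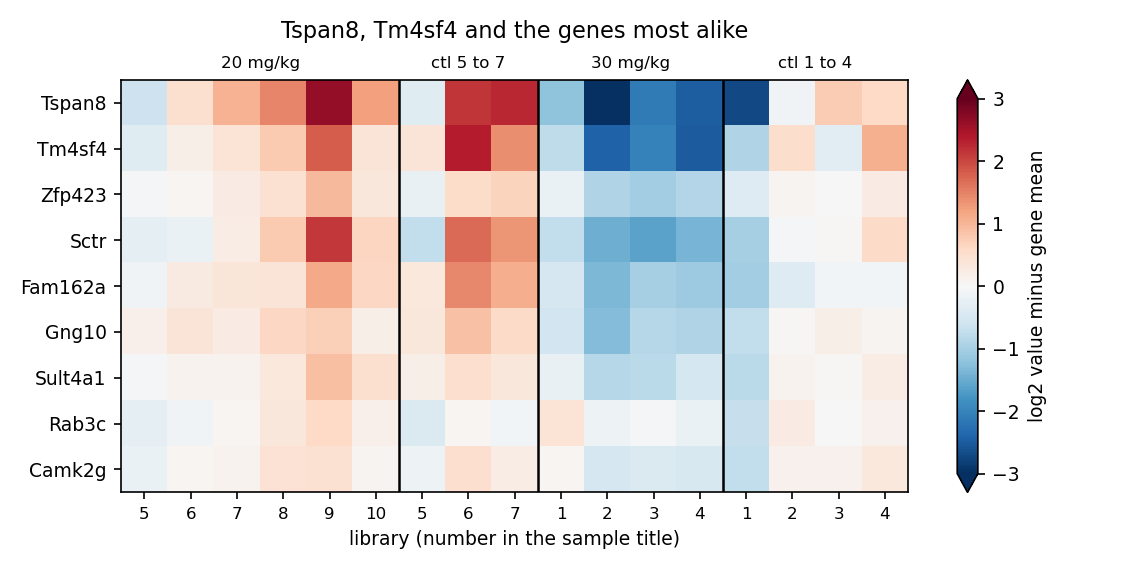
Log2 level minus the gene's mean over 17 arrays for Tspan8, Tm4sf4 and the 7 genes most like them, with a column per library in group order (ctl, control). Red is above and blue below the gene's mean. The 30 mg/kg columns and control column 1 are blue in most of the genes, and 20 mg/kg column 9 is red. In 30 mg/kg column 1 Rab3c and Camk2g are above their means.

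Sex had no part in choosing the genes and was tested with limma, with the 4 groups and sex as terms and Benjamini-Hochberg adjustment over all genes. In that comparison 38 of 14506 genes passed an adjusted p of 0.05 (0.262%). Tspan8 averaged 8.80 ± 2.09 in males (SD, n = 5) and 7.15 ± 1.497 in females (n = 12), and the fitted difference of 1.19 ± 0.605 (log2, SE; 95% interval -0.09 to 2.47) did not pass (limma adjusted p = 0.41). Tm4sf4 averaged 8.63 ± 1.92 in males and 7.65 ± 1.09 in females, a fitted difference of 0.57 ± 0.431 (95% interval -0.34 to 1.48; limma adjusted p = 0.62). Without control replicate 5 the Tspan8 difference was 0.74, and without 30 mg/kg replicate 4 it was 1.76. The Tm4sf4 difference was 0.27 without control replicate 5, 0.24 without 20 mg/kg replicate 9 and 1.07 without 30 mg/kg replicate 4. Both intervals given for all libraries include 0 and also a more than 2-fold higher level in males, so a sex difference was not detectable with these 5 males and was not shown to be absent. The males were spread unevenly: 2 of 6 at 20 mg/kg, 2 of 3 among controls 5 to 7, 1 of 4 at 30 mg/kg and 0 of 4 among controls 1 to 4.

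No change of another tetraspanin or L6 gene passed the test. Of 35 listed, 31 were measured, 27 tetraspanins and 4 L6 genes, and limma called 0 of the 31 in any of the comparisons. The background of called genes was 1.48% of all genes for all treated against all control (215 of 14506), 3.01% for 30 mg/kg against controls 1 to 4 (437) and 0.358% for 20 mg/kg against controls 5 to 7 (52). At an unadjusted p under 0.05 the 31 held 5, 8 and 0 genes in these comparisons, and 2 for sex. Over all genes that cut took in 14.4% for all treated, 17.6% at 30 mg/kg, 9.55% at 20 mg/kg and 13.5% for sex. Leaving out a single library gave calls at 30 mg/kg: Tm4sf5 without control replicate 3, Cd63 without 30 mg/kg replicate 1, Tspan31 without replicate 2, and Tm4sf1 and Tspan6 without replicate 4. The share of all genes called in those fits was not counted, and the 3.01% belongs to the fit with all libraries. With all libraries, the median fitted change of the 31 at 30 mg/kg was -0.07, beside -0.005 over all genes. The plain differences at 30 mg/kg ran from -0.78 for Tm4sf1 to 0.58 for Tspan31, so the values of -1.85 and -2.01 for the pair lay below all 31. The SD over the 17 arrays ran from 0.206 for Upk1b to 0.812 for Tm4sf1, also below those of the pair. The pair was selected on its levels over these groups and the 31 were not, so both comparisons are descriptions only.

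Among the 31, the smallest p at 30 mg/kg were those of Tspan7, a tetraspanin of neurons and endocrine cells, with a fitted change of -0.77 ± 0.252 (log2, SE; limma adjusted p = 0.11), Tm4sf5 (-0.43 ± 0.143, adjusted p = 0.12) and Tm4sf1, an L6 protein of endothelium and tumours (-0.90 ± 0.306, adjusted p = 0.12). With all libraries they were Rom1, a photoreceptor tetraspanin (-0.48 ± 0.169, adjusted p = 0.17), Tspan17, which escorts the protease ADAM10 (-0.57 ± 0.209, adjusted p = 0.20), and Cd63, the lysosomal and exosomal tetraspanin (0.31 ± 0.116, adjusted p = 0.22). At 20 mg/kg they were Tspan17 (-0.66, adjusted p = 0.53), Tspan1 (-0.34, adjusted p = 0.61) and Cd9 (0.22, adjusted p = 0.63). For sex they were Tspan33 (-0.61, adjusted p = 0.12), Tm4sf5 (0.26, adjusted p = 0.36) and Cd82 (0.51, adjusted p = 0.38). None of these changes passed the test.

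**Figure D4:**
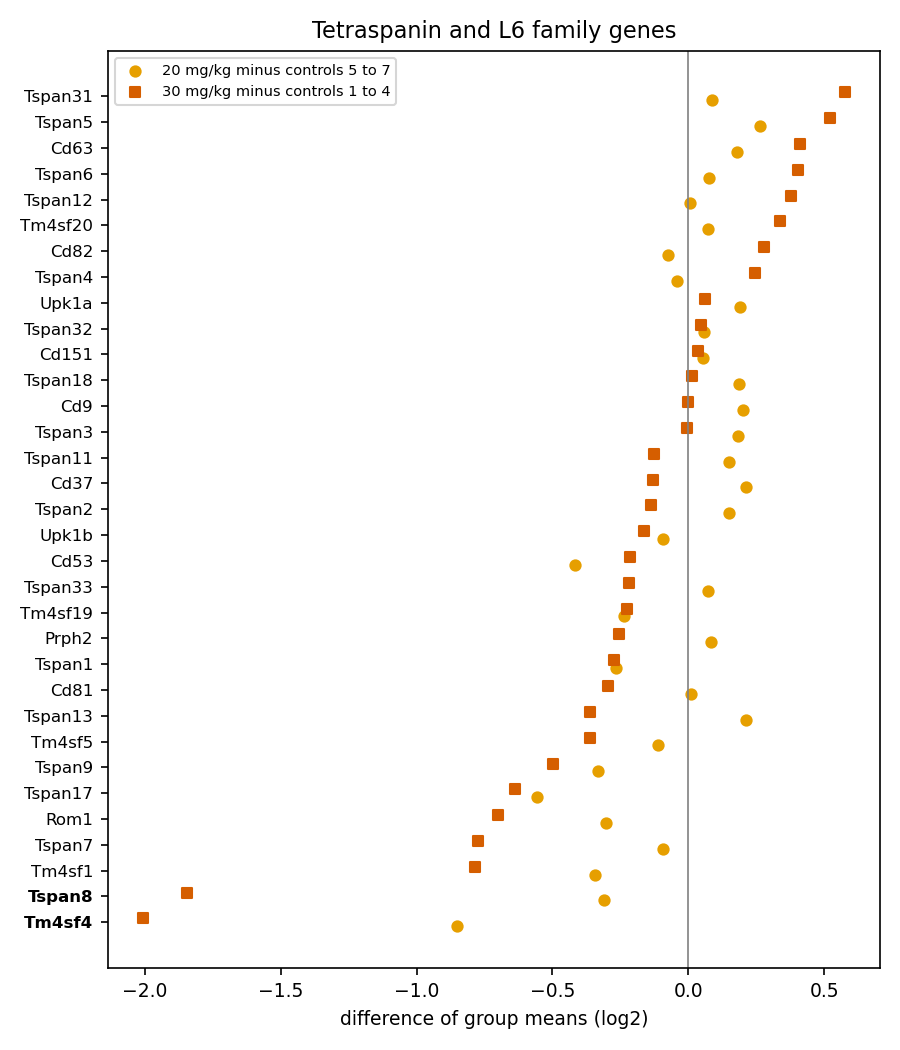
Difference of group means (log2) for the 31 other tetraspanin and L6 genes and for Tspan8 and Tm4sf4 (bold), with circles for 20 mg/kg minus controls 5 to 7 and squares for 30 mg/kg minus controls 1 to 4. At 30 mg/kg the pair lies at -1.85 and -2.01 and the other 31 between -0.78 and 0.58. The pair was selected on its levels in these groups.

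Proteins that bind tetraspanins and factors of the liver and gut were examined in the same fits. Of 12 measured partners 0 were called by limma in any comparison, with 2 at an unadjusted p under 0.05 for all treated, 3 at 30 mg/kg, 0 at 20 mg/kg and 5 for sex, beside 14.4%, 17.6%, 9.55% and 13.5% of all genes at that cut. Ptgfrn, an immunoglobulin-like partner of Cd9 and Cd81, came nearest, at -0.80 ± 0.227 at 30 mg/kg (log2, SE; limma adjusted p = 0.067) and -0.63 ± 0.162 over all treated (adjusted p = 0.063). Cd44, the hyaluronan receptor, had 0.66 ± 0.143 in males minus females (adjusted p = 0.062). Of 9 measured hepatic and intestinal transcription factors 0 were called, with 0, 3, 0 and 1 at an unadjusted p under 0.05 for all treated, 30 mg/kg, 20 mg/kg and sex. Over all genes the share at that cut was 17.6% at 30 mg/kg. The 3 at 30 mg/kg were Foxa1 (-0.35, adjusted p = 0.18), Gata4 (-0.37, adjusted p = 0.18) and Foxa2 (-0.35, adjusted p = 0.19), whose mean levels of 3.63, 3.91 and 4.03 lay below the array medians.

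Markers of the tissues in which Tspan8 and Tm4sf4 are usually found had low mean levels. Of 12 epithelial markers 3 had mean levels above the array median and 0 above the upper quartile, and 2 of 10 hepatocyte, 1 of 10 pancreatic acinar, 1 of 6 islet, 0 of 8 kidney tubule and 1 of 4 mesothelial markers were above the median, with 0 above the upper quartile. The epithelial adhesion molecule Epcam, with which Tspan8 associates, averaged 5.07 ± 0.720 (SD, n = 17; 4.043 to 7.158), and albumin, Alb, averaged 4.21 ± 0.418. Single libraries were higher: the highest value was 7.739 for Ins1 and 7.395 for Tf, above the upper quartiles, as was that of Epcam. The islet list mean ran from 4.25 to 4.94 in controls 5 to 7. It was highest in library 6, the control with the highest Tm4sf4 level. The list mean of the epithelial markers ran from 4.12 to 4.46 at 20 mg/kg and 4.25 to 4.36 in controls 5 to 7, and from 4.13 to 4.35 at 30 mg/kg and 4.28 to 4.50 in controls 1 to 4. The hepatocyte list mean ran from 4.02 to 4.23 at 20 mg/kg and 4.07 to 4.23 in controls 5 to 7, and from 4.14 to 4.25 at 30 mg/kg and 4.13 to 4.28 in controls 1 to 4. In these 6 lists and the Schwann, adipocyte and pituitary hormone lists limma called 0 genes in every comparison, with 0 to 2 genes of each at an unadjusted p under 0.05. Over all genes 0.262% to 3.01% were called, depending on the comparison, and the unadjusted cut took in 9.55% to 17.6%.

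Single markers of other cell types were called at 30 mg/kg, where 3.01% of all genes were called (437 of 14506). The chromaffin list mean was 11.7, 11.4, 10.7 and 11.1 in 30 mg/kg libraries 1 to 4, against 11.5, 11.7, 11.7 and 11.5 in control libraries 1 to 4, so 3 of the 4 treated libraries lay below every control and library 1, the highest of the treated for both genes, did not. Of the 6 genes limma called 1, Ddc, the aromatic amino acid decarboxylase, which fell by 1.82 ± 0.358 (log2, SE; limma adjusted p = 0.014). The vesicular transporter Slc18a1 had a change of -0.93 (adjusted p = 0.24), Chga, Chgb, Th and Dbh had changes between -0.13 and 0.24, and the median of the 6 was -0.04. The endothelial list mean ran from 7.36 to 7.75 at 30 mg/kg and 6.86 to 7.26 in controls 1 to 4, with a median fitted change of 0.48 over 8 genes, and 1 of the 8 was called, the VEGF receptor Flt1, which rose by 0.90 ± 0.168 (adjusted p = 0.011). The adrenal cortex list mean ran from 10.9 to 11.6 in both groups, and 1 of 9 genes was called, Mrap, a partner of the corticotropin receptor, which rose by 1.31 ± 0.268 (adjusted p = 0.018). The macrophage list mean ran from 6.32 to 7.38 at 30 mg/kg and 7.12 to 7.34 in controls 1 to 4, and 1 of 9 genes, Aif1, fell by 1.02 ± 0.207 (adjusted p = 0.017). Over the 17 arrays r with Tspan8 and with Tm4sf4 was 0.664 and 0.680 for the chromaffin list and -0.725 and -0.881 for the endothelial list. It was -0.701 and -0.534 for the adrenal cortex list and 0.568 and 0.638 for the macrophage list. Over deviations from the 4 group means these pairs of values were 0.554 and 0.636, -0.356 and -0.603, -0.529 and -0.330, and 0.039 and 0.082. The epithelial list had r of 0.379 and 0.529 over the arrays and 0.325 and 0.534 over deviations. For the acinar list it was -0.583 and -0.507 over the arrays and -0.419 and -0.525 over deviations. For the kidney tubule list it was -0.627 and -0.506, and -0.227 and 0.041. For the lymphocyte list it was 0.326 and 0.416, and 0.596 and 0.310. Not all lists are given here. The part of these markers in the levels of Tspan8 and Tm4sf4 was not tested.

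**Figure D5:**
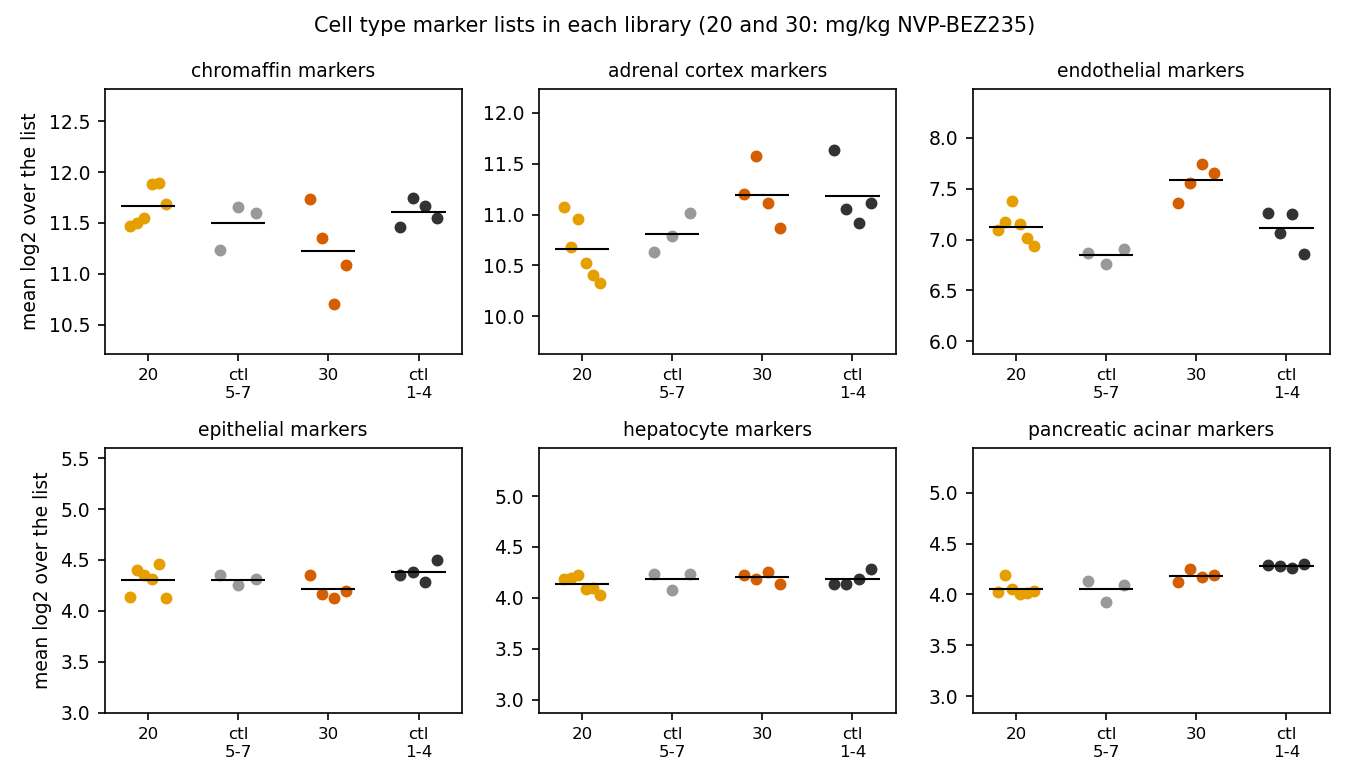
Mean log2 level over each of 6 marker lists in each library (points) and group mean (lines), in NVP-BEZ235 at 20 mg/kg, controls 5 to 7, NVP-BEZ235 at 30 mg/kg and controls 1 to 4. The axes cover spans of equal height at different levels. Epithelial, hepatocyte and acinar lists stay near 4 in every library, while the chromaffin list is lower in 30 mg/kg libraries 2 to 4 and the endothelial list higher at 30 mg/kg.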

How the data were processed

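The deposited values are log2 expression per probe set, made by the authors with RMA and Affymetrix Expression Console 1.3.0.187, per the submitters' processing notes. RMA corrects background, equalises the distributions of arrays and summarises probes. Total RNA was column-purified with DNase, amplified and biotin-labelled, as the labels' protocols state. The values were used as deposited.

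The table held 29214 probe sets on 17 arrays. Of these, 15310 had 1 gene symbol and 323 several. Of the 15310, 15279 matched the rat RefSeq table (GRCr8). The probe set with the highest mean stood for a symbol, which left 14506 genes. No arrays were identical, and the highest correlation between arrays was 0.991.

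Group differences of Tspan8 and Tm4sf4 are means with SD and SE, and no test was run on them. Other genes and sex were tested by two-sided moderated tests in limma 3.58.1 (R 4.3.3), with Benjamini-Hochberg adjustment over all genes and a threshold of 0.05. The fits had treatment and sex, or 4 groups of dose and title-number set and sex, as terms. The code was tested on simulated data. The members, the 20 gene lists and the tests were chosen with earlier results of these data known. Family genes and up to 3 genes of a list were named by smallest p, and the 5 genes most alike by mean r. Promoter windows came from RefSeq, and protein sequences were not used here. Alternatives were other scalings, filters, variance settings, females only, a replicate block and leaving out each library.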

Additional observations from a re-analysis of the deposited data

Results flagged for a closer look

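Of 57 group values checked, those of 19 named genes in 3 label groups (20 mg/kg, 30 mg/kg and control), 4 held a library far from the others of its group by Dixon's criterion, which chance meets in about 1 of 20 groups. Neither Tspan8 nor Tm4sf4 was among them. Sult4a1, among the genes most like the pair, had 5.573 in control replicate 1, against 6.415 to 6.878 in the other controls, the library in which Tspan8 was also lowest of the controls. Camk2g had 7.375 in 30 mg/kg replicate 1, against 6.832 to 6.887 in the others, the library in which both Tspan8 and Tm4sf4 were highest at that dose. Sult4a1 and Camk2g were chosen for their likeness to the pair, so sharing its extreme libraries follows in part from that choice. Rom1 had 5.607 in 30 mg/kg replicate 4, against 5.868 to 5.879. Tspan33 had 7.045 in control replicate 5, against 6.334 to 6.62.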

How the results depend on the processing

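Of 261 alternative values, 255 counted as the same and 6 moved further. Differences of the pair counted as the same if they moved by less than the pooled SD, so some at 20 mg/kg changed sign. The correlation had to stay within its standard error, the sex differences on their side of 0 and of the threshold, and the family counts unchanged. Some alternatives could not differ, such as the mean of probe sets with 1 probe set per gene. The Tspan8 difference at 20 mg/kg was 0.96 in females alone, where 1 control remains. The correlation of Tspan8 with Tm4sf4 was 0.827 over deviations from the group means, and between 0.895 and 0.935 when single libraries were left out. The number of family genes called at 30 mg/kg was between 0 and 2 when single libraries were left out: Tm4sf5 without control replicate 3, Cd63 without 30 mg/kg replicate 1, Tspan31 without replicate 2, and Tm4sf1 and Tspan6 without replicate 4. The share of all genes called in these fits was not counted, and the cause was not tested. The difference at 30 mg/kg lay between -2.63 and -1.47 for Tspan8 and between -2.40 and -1.68 for Tm4sf4, and those at 20 mg/kg between -1.17 and 0.96 and between -1.35 and -0.13. The sex difference lay between 0.74 and 1.76 for Tspan8 (limma adjusted p between 0.073 and 0.74) and between 0.24 and 1.07 for Tm4sf4 (adjusted p between 0.14 and 0.89).

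Libraries of the same title number showed little likeness in these values. Of 7 same-number pairs, 1 had a correlation of deviations over 0.1 (range -0.286 to 0.230). Of the 7 treated arrays, 1 was closest to the control of its own number. So few pairs cannot show whether libraries of the same number were handled together. At 30 mg/kg the mean of within-number differences, -1.85 for Tspan8 and -2.01 for Tm4sf4, equals the difference of means by arithmetic. At 20 mg/kg it covered numbers 5 to 7 only, so treated libraries 8, 9 and 10 were left out. It was -1.05 for Tspan8 and -1.31 for Tm4sf4 there, and the effect of pairing cannot be told from that of the omitted libraries. A replicate block in the limma fits left the family counts at 0 and the limma adjusted p for sex at 0.39 and 0.60.

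The limits are the 3 to 6 libraries per group, 1 probe set per gene, the coincidence of dose with title-number set, and the uneven sexes.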

Other observations

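Of 9 measured mitosis genes, limma called 3 lower at 20 mg/kg: Top2a, a topoisomerase of dividing cells, fell by 2.13 ± 0.296 (log2, SE; adjusted p = 0.0045), the mitotic kinase Cdk1 fell by 1.34 ± 0.233 (adjusted p = 0.018) and cyclin Ccnb2 fell by 1.07 ± 0.197 (adjusted p = 0.025). At 30 mg/kg 0 of 9 were called, with 2 at an unadjusted p under 0.05, Aurkb (-0.94, adjusted p = 0.051) and Top2a (-0.79, adjusted p = 0.15). Over all genes limma called 0.358% at 20 mg/kg and 3.01% at 30 mg/kg in either direction. The unadjusted cut took in 17.6% of all genes at 30 mg/kg. The list mean was 4.23 ± 0.0622 at 20 mg/kg (SD, n = 6) and 5.19 ± 0.420 in controls 5 to 7 (n = 3), and 4.12 ± 0.0261 at 30 mg/kg and 4.48 ± 0.200 in controls 1 to 4 (n = 4 each). The difference between the doses in these changes was not tested. Over all treated libraries 3 genes were called lower, Top2a, Prc1 and Ccnb2, beside 1.48% of all genes called in either direction. The mean levels of Top2a, Cdk1 and Prc1, 4.36, 3.71 and 4.62, lay below the array medians, and that of Ccnb2, 5.21, lay above them.

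Lymphocyte and matrix markers also held called genes. Over all genes the called share was 1.48% for all treated, 3.01% at 30 mg/kg and 0.358% at 20 mg/kg. Of 7 lymphocyte markers, Cd2 fell by 0.49 and Cd3d by 0.99 on the log2 scale over all treated (limma adjusted p = 0.010 and 0.045), and Cd3g fell by 1.28 at 20 mg/kg (adjusted p = 0.012). Of 7 fibroblast and matrix markers, Col3a1 fell by 0.68 over all treated (adjusted p = 0.0064) and by 0.68 at 30 mg/kg (adjusted p = 0.036), and Pdgfra, a receptor of mesenchymal cells, rose by 1.29 at 30 mg/kg (adjusted p = 0.025). Aif1 fell by 1.49 at 20 mg/kg (adjusted p = 0.0045). Flt1 rose by 0.74 over all treated (adjusted p = 0.033).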
